A study of Mus musculus with 8 samples.

Results

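A preantral follicle is an oocyte wrapped in layers of granulosa cells with no cavity, and a small antral follicle is one in which fluid has begun to collect between those cells. What differed in RNA between these stages was read from 4 of the 8 libraries of a mouse ovary RNA-seq series, chosen by their labels: the preantral (PF-WT) and the small antral (SAF-WT) follicles of wild type C57BL/6 mice, replicates 1 and 2 of each. No transgene, deletion or treatment is named for these mice, and their age is not given in the sources used here. Each library holds the polyadenylated RNA of a single whole follicle, freed from the ovary with a hypodermic needle, purified on SPRI Ampure beads and amplified by the SMARTer Ultra Low Input kit. The other 4 libraries, PF-TF and SAF-TF, come from C57BL/6 follicles of the same stages whose origin is given as female germline stem cells (FGSCs) that had been transplanted, the transplant hosts not being given. They enter only the estimate of the spread and the test of whether the stage change differed with the source. Whether the follicles of 1 stage came from separate mice is not given, so the p-values measure only the spread between these follicles, which may be technical.

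The oocyte of a growing follicle builds up RNA for meiosis and for the embryo, lays down its zona pellucida coat and sends growth factors to the granulosa cells. Granulosa cells divide, make inhibins, anti-Müllerian hormone and oestradiol, and feed the oocyte through gap junctions, while hedgehog ligands from the granulosa side reach the theca, the outer layer that makes androgen and carries muscle cells, collagen and vessels. Androgen made in the theca is the substrate from which granulosa cells make oestradiol.

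The PF-WT libraries held 7656108 and 8908290 counts and the SAF-WT libraries 9805287 and 8933128, so that a count of 0 allows up to 0.333 to 0.394 CPM (a gene's counts relative to the TMM-scaled library total) depending on the library, for counting error only. Log2 CPM correlated at 0.953 within PF-WT, at 0.975 within SAF-WT and at 0.798 to 0.838 between the stages, these being correlations over genes and not over replicates. The summed level of 10 granulosa marker genes was 1946 and 3151 CPM in PF-WT and 609 and 717 CPM in SAF-WT. For 11 oocyte markers it was 6874 and 6334 CPM in PF-WT against 453 and 2524 CPM in SAF-WT, and for 8 theca markers 817 and 1066 CPM against 4618 and 3861 CPM. The 8 stromal markers summed to 375 and 158 CPM in PF-WT and to 3481 and 3038 CPM in SAF-WT. Every oocyte, granulosa and theca marker was above 0 in all 4 libraries. In whole follicles, fewer cells of a type and less RNA per cell cannot be told apart, and the part that a changed mix of cells has in the differences below was not tested.

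Of 17925 genes tested, 35.1% (6294) passed the threshold of 0.05 on the adjusted p of edgeR's quasi-likelihood test, 2268 higher (12.7%) and 4026 lower (22.5%) in SAF-WT. The median log2 fold change of all genes was -0.20, the log2 fold change being SAF-WT over PF-WT throughout, given ± SE, with 2 follicles a stage. Falls were the larger changes: 2452 genes fell and 726 rose by more than 4-fold, and 739 fell and 65 rose by more than 32-fold. Large and small changes therefore split differently between the directions, as the plot of stage means over all genes shows. The split depends on the scaling: with the scale factors the authors used, the median over all genes moved to 0.14 and 53.5% of the called genes were higher, against 36.0% with TMM factors and 43.9% with RLE factors. No gene called with TMM factors was called the other way with the others. The libraries of the stages did not overlap, whatever the test, in 30.9% of all genes with SAF-WT higher and in 40% with SAF-WT lower. Without SAF-WT replicate 1 the calls came to 3075, of which 926 were higher and 2149 lower.

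**Figure D1:**
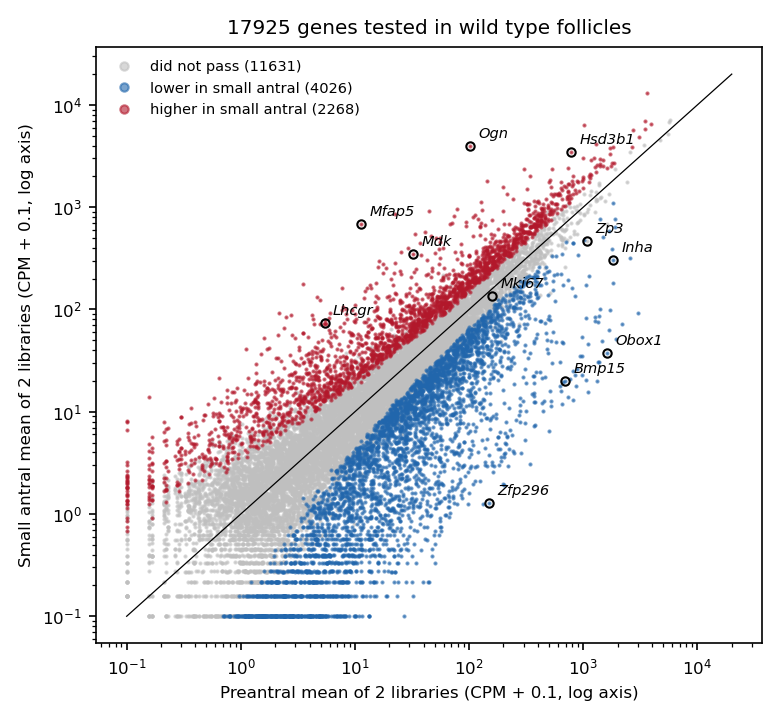
Mean expression of each of the 17925 genes tested in PF-WT (x axis) and SAF-WT (y axis), as CPM + 0.1 on log axes, each point a gene and the line marking equal levels. Red points are the 2268 genes higher and blue points the 4026 genes lower in SAF-WT, and the blue cloud reaches farther from the line than the red one.

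The gene lists with the lowest medians were those of the oocyte. Of 12 tested genes for secreted oocyte proteins, 9 fell and none rose, with a median log2 fold change of -3.90. Among 20 maternal effect genes, whose products the egg stores for the embryo, 17 fell and none rose (median -4.01), and among 14 oocyte transcription factors 9 fell and none rose (median -3.20). The size of these falls depends on the small antral library. In the same order, the medians were -3.20, -3.27 and -2.7 without SAF-WT replicate 1. Without SAF-WT replicate 2 they were -5.22, -5.22 and -4.04. The promoters of 4 members are printed because these genes fell into 2 kinds: Zp3 and Padi6 differed between the small antral libraries, and Oosp1 and Obox1 did not. They are the 250 bases before the RefSeq start site (GRCm38.p6, 5′ to 3′ on the gene's strand), with each E-box in capitals, searched as CANNTG on both strands, the letters bound by helix-loop-helix factors such as Figla. Zp3 lies at chr5:135979855-135980104 (plus strand), Padi6 at chr4:140742644-140742893 (minus), Oosp1 at chr19:11691052-11691301 (minus) and Obox1 at chr7:15547007-15547256 (plus).
Zp3: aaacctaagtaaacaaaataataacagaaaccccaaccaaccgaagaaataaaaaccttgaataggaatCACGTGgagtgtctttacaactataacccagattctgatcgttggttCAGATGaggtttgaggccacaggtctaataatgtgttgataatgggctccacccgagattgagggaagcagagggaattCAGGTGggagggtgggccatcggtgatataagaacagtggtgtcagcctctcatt
Padi6: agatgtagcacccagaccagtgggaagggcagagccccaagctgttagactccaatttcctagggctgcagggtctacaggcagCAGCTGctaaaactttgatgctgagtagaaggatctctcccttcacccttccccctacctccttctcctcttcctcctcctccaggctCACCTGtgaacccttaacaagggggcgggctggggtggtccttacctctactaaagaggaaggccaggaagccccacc
Oosp1: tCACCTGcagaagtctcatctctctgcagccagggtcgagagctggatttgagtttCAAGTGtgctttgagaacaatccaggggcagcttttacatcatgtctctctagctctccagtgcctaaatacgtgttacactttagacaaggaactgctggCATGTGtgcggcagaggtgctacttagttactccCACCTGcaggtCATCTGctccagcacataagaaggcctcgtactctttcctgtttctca
Obox1: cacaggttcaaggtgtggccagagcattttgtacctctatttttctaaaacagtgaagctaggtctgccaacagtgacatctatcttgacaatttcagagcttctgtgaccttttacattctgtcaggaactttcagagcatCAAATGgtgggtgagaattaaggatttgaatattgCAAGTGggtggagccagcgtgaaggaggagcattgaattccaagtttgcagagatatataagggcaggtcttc
Zp3 holds 3 matches, Padi6 2, Oosp1 5 and Obox1 2. The letters occur in 66% of all 27025 RefSeq promoters of this length and in 58.9% of those of the genes tested. They are in 6 of the 7 promoters found for secreted oocyte proteins and in 13 of 14 for maternal effect genes. For oocyte transcription factors it was 9 of 12, and for meiotic arrest and resumption 6 of 14. Lists of other cells also had high shares, 92.3% for macrophages and leukocytes and 88.9% for surface epithelium, so the letters are not particular to oocyte genes. A match describes the sequence and is not a binding site.

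The ligands by which the oocyte instructs its granulosa cells fell far. Bmp15 stood at 596 and 799 CPM in the preantral and at 16.6 and 22.99 CPM in the small antral libraries (log2 fold change -5.14 ± 0.37, adjusted p = 4.58e-05). Gdf9, its partner of the same family, went from 669.8 and 1274 CPM to 24.8 and 81.8 CPM (log2 fold change -4.19 ± 0.53, adjusted p = 0.000425), and Fgf8, which acts with them on cumulus cells, from 104 and 81.2 CPM to 2.06 and 2.49 CPM (log2 fold change -5.34 ± 0.60, adjusted p = 0.000225). In all 3 genes both preantral follicles lay far above both small antral ones. The oocyte-secreted Oosp1 stood at 1339 and 624 CPM in PF-WT and at 33.8 and 36.5 CPM in SAF-WT (log2 fold change -4.80 ± 0.42, adjusted p = 8.06e-05), its family members Oosp2 and Oosp3 falling by 4.57 and 5.12 on the log2 scale. Both small antral follicles were low and nearly equal in these 3 genes. The homeobox gene Obox1, of a family expressed in oocytes, went from 2359 and 878 CPM to 35.3 and 39.5 CPM (log2 fold change -5.44 ± 0.44, adjusted p = 5.96e-05), and its near copy Obox5 from 1883 and 836 CPM to 35.3 and 25.5 CPM, reads of such copies being hard to assign. Of the factors that switch on oocyte genes, Nobox fell from 146 and 196 CPM to 2.98 and 15.9 CPM (log2 fold change -4.18 ± 0.62, adjusted p = 0.00103) and Lhx8 from 70.9 and 79.01 CPM to 4.59 and 7.58 CPM (log2 fold change -3.62 ± 0.43, adjusted p = 0.00032). Figla, which drives the zona genes, stood at 27.2 and 23.7 CPM in PF-WT and 13.4 and 54.03 CPM in SAF-WT and did not pass (log2 fold change 0.41 ± 0.52, adjusted p = 0.57), its libraries overlapping between the stages. Sohlh1, also an oocyte transcription factor gene, did not pass with TMM factors. It passed as higher in SAF-WT with RLE factors, with the authors' scale factors and with DESeq2. The same held in a fit of the 4 wild type libraries and with a GC and length correction. Over these settings its log2 fold change was 2.37 to 2.70 (adjusted p = 0.031 to 0.0474).

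Genes of the oocyte's RNA stores and of meiosis went the same way in count. Of 14 genes that store or decay maternal mRNA 11 fell and none rose (median -2.96), of 15 germ granule and piRNA genes 9 fell (median -2.42), and of 17 genes of meiotic arrest and resumption 11 fell (median -2.27). In the same order, the medians were -2.83, -1.86 and -2.43 without SAF-WT replicate 1. Without SAF-WT replicate 2 they were -3.11, -3.59 and -2.21. Btg4, which brings maternal mRNA to its deadenylase, went from 2322 and 1049.9 CPM to 50.2 and 74.3 CPM (log2 fold change -4.76 ± 0.55, adjusted p = 0.000259). The poly(A)-binding Pabpn1l went from 280.2 and 211 CPM to 3.56 and 4.15 CPM (log2 fold change -5.99 ± 0.42, adjusted p = 4.58e-05). Mos, a kinase needed for the egg's arrest in meiosis, went from 450.3 and 292 CPM to 4.93 and 9.24 CPM (log2 fold change -5.71 ± 0.39, adjusted p = 4.58e-05). The stages did not overlap in any of these. Cpeb4 (31.1 and 28.5 CPM against 33.3 and 30.3 CPM) and Zfp36l2 (54.2 and 42.3 CPM against 73.5 and 65.5 CPM), which also act on mRNA tails and decay, did not pass. Meiotic chromosome proteins were mixed: 3 of 14 fell and none rose, a share below that of all genes, with Sycp2 of the synaptonemal complex at 44.8 and 36.6 CPM and 1.49 and 6.28 CPM (log2 fold change -3.39 ± 0.54, adjusted p = 0.00147) and its partner Sycp3 at 62.6 and 26.7 CPM and 40.2 and 30.6 CPM, which overlapped. Zfp36l2 passed with the authors' scale factors (adjusted p = 0.0285).

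The 2 small antral follicles differed from each other in many oocyte genes. Replicate 2 was higher, by any margin, in 12 of 12 secreted oocyte genes and 18 of 20 maternal effect genes. It was higher in 13 of 15 germ granule genes and 11 of 14 oocyte transcription factors. For mRNA storage and decay it was 9 of 14, and for meiotic arrest and resumption 9 of 17. Zp3, a zona pellucida protein, was at 1208 and 952 CPM in PF-WT, at 82.6 CPM in SAF-WT replicate 1 and at 852 CPM in replicate 2 (log2 fold change -1.21 ± 0.83, adjusted p = 0.284). Zp2 was at 704 and 679 CPM in PF-WT and at 48.8 and 475 CPM in SAF-WT (log2 fold change -1.40 ± 0.81, adjusted p = 0.205), and Zp1 at 216 and 178 CPM and 2.18 and 30.1 CPM (log2 fold change -3.61 ± 0.91, adjusted p = 0.0128). Replicate 1 was low in the whole coat, and replicate 2 held Zp2 and Zp3 near the preantral level. Padi6, part of the subcortical lattice of the egg, stood at 322 and 517 CPM in PF-WT and at 16.1 and 259 CPM in SAF-WT (log2 fold change -1.61 ± 0.99, adjusted p = 0.232), and Nlrp5 of the subcortical maternal complex at 241 and 309.6 CPM and 18.2 and 126 CPM (log2 fold change -1.93 ± 0.72, adjusted p = 0.0639). With SAF-WT replicate 2 left out, the log2 fold changes were -3.83 for Zp2, -3.71 for Zp3, -3.92 for Nlrp5 and -4.71 for Padi6, and all 4 passed. Of 48 members of the 6 oocyte lists with a mean of at least 10 CPM in SAF-WT, 21 (43.8%) were more than 2-fold higher in replicate 2, 27 were within 2-fold and 0 were more than 2-fold higher in replicate 1. Over all 8472 genes at that level the share more than 2-fold higher in replicate 2 was 1.69%. A mean can reach that level through replicate 2 alone, as for Zp1 and for Tle6 (7.23 and 37.3 CPM). The 43.8% therefore rests in part on the filter. Dppa3, a maternal factor that guards methylation in the zygote, was at 274 and 900.04 CPM in the small antral libraries, with 2162 and 1228 CPM in PF-WT (log2 fold change -1.53 ± 0.47, adjusted p = 0.0309). Bmp15, Oosp1, Obox1, Btg4 and Mos were low in both small antral libraries. E-box letters were in 13 of the 14 promoters found for the 21 members and in 13 of 21 for the 27. That split was made from these same values and is a description with no test. Dppa3 did not pass with SAF-WT replicate 1 or PF-WT replicate 1 left out, with the authors' scale factors or in a fit of the 4 wild type libraries (adjusted p = 0.0528 to 0.18).

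**Figure D2:**
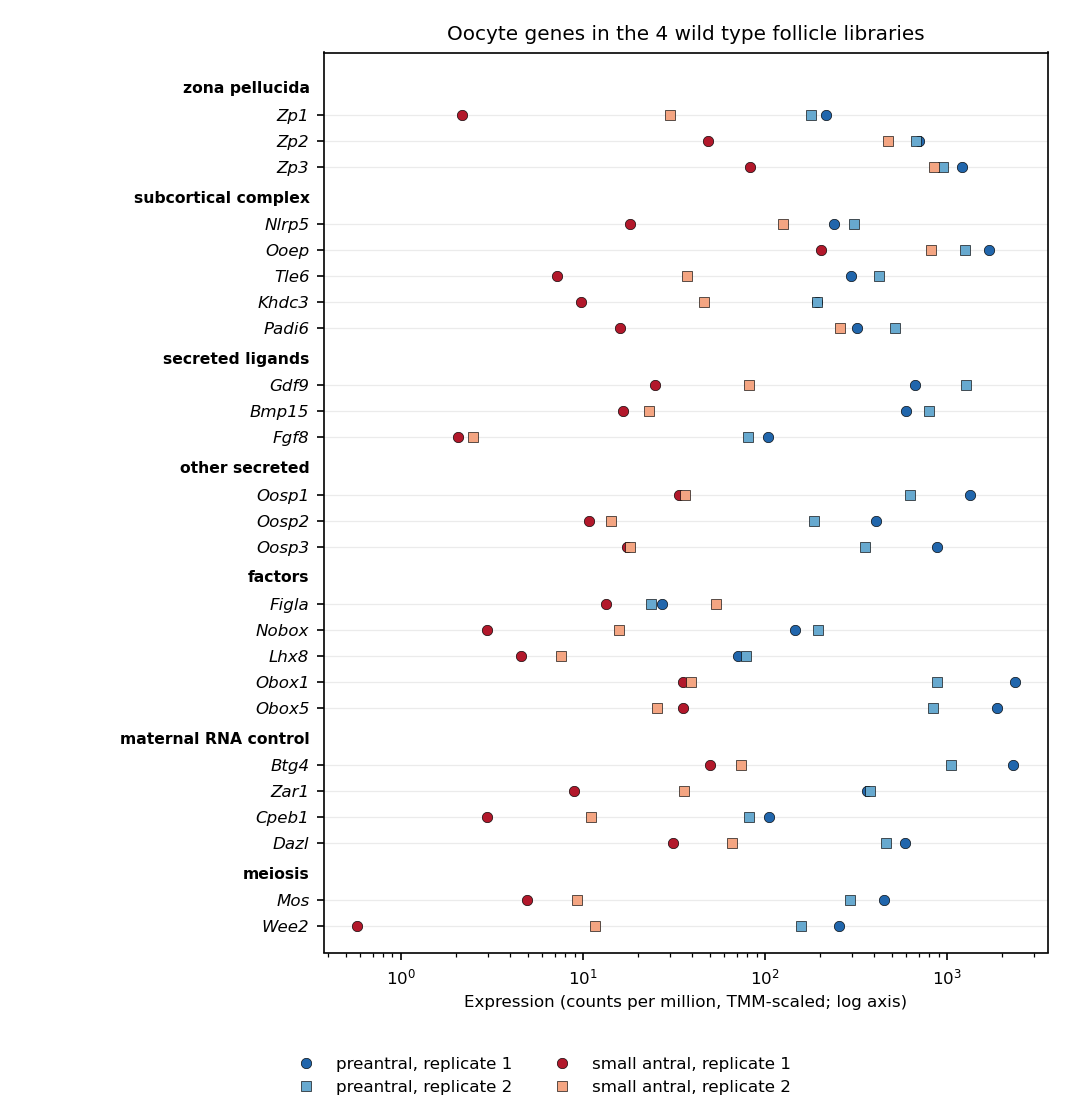
Expression of oocyte genes (CPM, log axis) in the 4 libraries, grouped by role: circles are replicate 1 and squares replicate 2, blue preantral and red to orange small antral. Zp2, Zp3 and Padi6 show a wide gap between the small antral replicates, whereas Bmp15, Oosp1 and Obox1 show both small antral points close together and far to the left.

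Granulosa hormone genes fell more often than they rose. Of 24 tested, 9 fell and 3 rose, with a median of -0.78 (range -0.86 to -0.43), against 22.5% lower over all genes. A range given after a median holds the medians under the other settings and with each library left out, without the replicate block. Inha, the inhibin alpha subunit, was at 1272 and 2387 CPM in PF-WT and at 259 and 346 CPM in SAF-WT (log2 fold change -2.60 ± 0.32, adjusted p = 0.000351). Cyp19a1, the aromatase that makes oestradiol, was at 40.4 and 11.5 CPM and 1.38 and 2.96 CPM (log2 fold change -3.57 ± 0.72, adjusted p = 0.00464), and Hsd17b1, which reduces oestrone to oestradiol, at 186 and 384 CPM and 66.8 and 99.1 CPM (log2 fold change -1.78 ± 0.43, adjusted p = 0.0109). The stages did not overlap in these 3 genes, and the preantral libraries themselves lay apart. Amh stood at 4.86 and 40.9 CPM in PF-WT and at 0.574 and 1.30 CPM in SAF-WT (log2 fold change -4.60 ± 0.95, adjusted p = 0.00529), and its receptor Amhr2 at 31.9 and 102 CPM and 6.31 and 15.8 CPM (log2 fold change -2.61 ± 0.57, adjusted p = 0.00688). The FSH receptor Fshr went from 29.3 and 21.9 CPM to 9.06 and 12.3 CPM (log2 fold change -1.26 ± 0.40, adjusted p = 0.0355). The activin and inhibin beta subunits did not pass: Inhba was at 6.96 and 3.77 CPM and 13.3 and 23.3 CPM, and Inhbb at 22.3 and 13.4 CPM and 34.9 and 26.8 CPM. Without SAF-WT replicate 1 the list's falls came to 3. Hsd17b1 did not pass with SAF-WT replicate 1 or PF-WT replicate 2 left out (adjusted p = 0.0699 to 0.0932). Amh and Amhr2 did not pass with SAF-WT replicate 1 left out (adjusted p = 0.0512 to 0.0581). Fshr did not pass with SAF-WT replicate 1, SAF-WT replicate 2 or PF-WT replicate 1 left out, with RLE factors, with the authors' scale factors or with a GC and length correction (adjusted p = 0.0595 to 0.203). Inhba passed in a fit of the 4 wild type libraries (adjusted p = 0.0224).

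Of 18 transcription factors that define granulosa cells 1 was higher (5.56%) and 2 were lower (11.1%), with a median of -0.38 (range -0.500 to -0.04). Both shares were below those of all genes, 12.7% and 22.5%. Foxl2, which keeps granulosa identity, was at 17.5 and 27.5 CPM in PF-WT and 32.4 and 35.8 CPM in SAF-WT and did not pass (log2 fold change 0.60 ± 0.29, adjusted p = 0.133). Nr5a2, needed for ovulation, was at 191 and 138 CPM and 130.3 and 128 CPM (log2 fold change -0.35 ± 0.30, adjusted p = 0.387), with every small antral value below every preantral one by a small margin, and Gata4 at 15.5 and 24.5 CPM and 20.8 and 21.6 CPM, which overlapped. The oestrogen receptor Esr2 fell from 167 and 102 CPM to 53.9 and 43.1 CPM (log2 fold change -1.47 ± 0.43, adjusted p = 0.0245). With the authors' scale factors 4 members of this list were higher and 1 lower. Esr2 did not pass with SAF-WT replicate 1, SAF-WT replicate 2 or PF-WT replicate 1 left out or with the authors' scale factors (adjusted p = 0.0693 to 0.17). Foxl2 passed with PF-WT replicate 2 left out, with the authors' scale factors, with DESeq2 and with a GC and length correction (adjusted p = 0.0146 to 0.0472).

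Of 22 tested genes tied to the antrum itself 4 were higher and 4 lower, 18.2% each, near the 12.7% and 22.5% of all genes (median -0.18, range -0.38 to 0.40). Cldn1, a tight junction protein, rose from 4.60 and 3.66 CPM to 86.3 and 91.9 CPM (log2 fold change 4.43 ± 0.58, adjusted p = 0.000502). Hapln1, which links hyaluronan to proteoglycans, had no count in PF-WT and stood at 1.84 and 1.66 CPM in SAF-WT (adjusted p = 0.0436). Gja4, the connexin of the oocyte's gap junctions, went from 143 and 117 CPM to 2.52 and 7.82 CPM (log2 fold change -4.65 ± 0.64, adjusted p = 0.000649). Gja1, the connexin between granulosa cells, was at 985 and 682 CPM and 618 and 562 CPM and did not pass (log2 fold change -0.499 ± 0.41, adjusted p = 0.37). The water channel Aqp9 was at 7.22 and 10.1 CPM in PF-WT and had 1 count in each SAF-WT library, a ratio of 75.3 (95% counting interval 20.5 to 628), while Aqp5 and Aqp8 were under 4 CPM in every library and did not pass. Vcan, a proteoglycan of follicular fluid, was at 23.1 and 75.02 CPM and 42.2 and 44.9 CPM, both small antral values lying between the preantral ones. The hyaluronan synthase Has2 had too few counts to be tested. Of 13 ovulatory and cumulus genes 5 rose and 1 fell (median 1.82), all 5 of them below 35 CPM in every library, and 1 to 3 rose with a library left out. The 5 were Star, Ptger2, Pgr, Ptx3 and Ereg. With PF-WT replicate 2 left out Vcan was higher in SAF-WT, with a log2 fold change of 0.91 (adjusted p = 0.0497). Hapln1 and Ereg did not pass with any 1 of the 4 libraries left out, without a filter on low counts or with a GC and length correction (adjusted p = 0.0505 to 0.202). Ptger2 did not pass with SAF-WT replicate 1, SAF-WT replicate 2 or PF-WT replicate 1 left out (adjusted p = 0.0732 to 0.136). Pgr did not pass with any 1 of the 4 libraries left out (adjusted p = 0.0508 to 0.135). Ptx3 did not pass with SAF-WT replicate 1, PF-WT replicate 1 or PF-WT replicate 2 left out (adjusted p = 0.0676 to 0.293). Aqp8 passed with PF-WT replicate 2 left out (adjusted p = 0.0392).

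Theca genes for making steroids rose, 9 of 20 tested and none lower (median 1.02, range 0.91 to 1.69), against 12.7% higher over all genes. Hsd3b1, the enzyme that turns pregnenolone into progesterone, was at 617 and 945 CPM in PF-WT and 3775 and 3079.9 CPM in SAF-WT (log2 fold change 2.13 ± 0.32, adjusted p = 0.00107). Lhcgr, the receptor for luteinizing hormone, went from 8.01 and 2.66 CPM to 80.2 and 67.3 CPM (log2 fold change 3.81 ± 0.53, adjusted p = 0.000699). Cyp17a1, which makes androgen, went from 12.1 and 5.10 CPM to 47.2 and 41.5 CPM (log2 fold change 2.37 ± 0.45, adjusted p = 0.00359). The small antral libraries were close to each other and above both preantral libraries in these genes. Nr2f2, a theca and stroma factor, rose from 39.1 and 22.1 CPM to 232 and 183 CPM (log2 fold change 2.76 ± 0.33, adjusted p = 0.000338), and the side-chain cleavage enzyme Cyp11a1 from 65.4 and 31.4 CPM to 169 and 164 CPM (log2 fold change 1.78 ± 0.51, adjusted p = 0.0227). Insl3, a theca peptide hormone, stood at 25.9 and 5.55 CPM and 87.6 and 79.5 CPM (log2 fold change 2.42 ± 0.81, adjusted p = 0.0421). Scarb1, a lipoprotein receptor (19.6 and 29.3 CPM against 9.87 and 16.9 CPM), did not pass. Cyp11a1 did not pass with SAF-WT replicate 1, SAF-WT replicate 2 or PF-WT replicate 2 left out (adjusted p = 0.06 to 0.121). Insl3 did not pass with SAF-WT replicate 1, SAF-WT replicate 2 or PF-WT replicate 2 left out, with DESeq2 or with a GC and length correction (adjusted p = 0.0554 to 0.151).

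Hedgehog ligands and their read-outs went in opposite directions. Ihh, made by granulosa cells, was at 4.73 and 12.3 CPM in PF-WT and 1.38 and 0.711 CPM in SAF-WT (log2 fold change -3.01 ± 0.60, adjusted p = 0.00451), and Dhh at 7.22 and 10.99 CPM and 1.72 and 3.44 CPM (log2 fold change -1.82 ± 0.47, adjusted p = 0.0141). Ptch1, the receptor and a standard target of the pathway, was at 42.2 and 51.3 CPM and 205 and 214 CPM (log2 fold change 2.16 ± 0.33, adjusted p = 0.00116). Hhip, a target that binds hedgehog ligand, was at 7.22 and 2.44 CPM and 117 and 131 CPM (log2 fold change 4.69 ± 0.59, adjusted p = 0.000425). None of these 4 genes overlapped between the stages. Smo, Gli3 and Gas1 also rose, by 1.03 ± 0.32, 1.26 ± 0.37 and 2.30 ± 0.48 on the log2 scale, and Disp1, which releases the ligand from the cell, fell from 42.4 and 34.3 CPM to 3.21 and 6.64 CPM (log2 fold change -2.96 ± 0.40, adjusted p = 0.00059). In all 5 of 13 members rose and 4 fell, and each library left out in turn gave 3 rises. With all libraries the shares of the 13 were 38.5% higher and 30.8% lower, against 12.7% and 22.5% of all genes. Gli1 had too few counts to be tested. Dhh did not pass with SAF-WT replicate 1 or PF-WT replicate 2 left out (adjusted p = 0.0714 to 0.116). Smo and Gli3 did not pass with any 1 of the 4 libraries left out (adjusted p = 0.0523 to 0.165).

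Matrix genes were among the largest rises. Mfap5, a protein of elastic microfibrils, was at 14.4 and 8.10 CPM in PF-WT and 771 and 584 CPM in SAF-WT (log2 fold change 5.91 ± 0.34, adjusted p = 4.5e-05). Ogn, a small proteoglycan that binds collagen, was at 149.7 and 55.3 CPM and 4893 and 2949.9 CPM (log2 fold change 5.26 ± 0.66, adjusted p = 0.000412). Its relative Aspn was at 34.7 and 10.2 CPM and 1140.1 and 569 CPM (log2 fold change 5.26 ± 0.75, adjusted p = 0.000839). All of these were low in both preantral libraries. Of 24 proteoglycan and elastic fibre genes 15 rose and 2 fell (median 2.45, range 2.20 to 3.80), with Lum at 37.9 and 28.4 CPM and 615 and 466 CPM (log2 fold change 4.03 ± 0.66, adjusted p = 0.00166) and Dcn at 91.7 and 50.3 CPM and 726 and 687 CPM (log2 fold change 3.32 ± 0.41, adjusted p = 0.000385). Of 14 collagens 11 rose and none fell (median 2.19), or 7 without PF-WT replicate 2. Col1a2 went from 80.4 and 22.7 CPM to 509 and 486 CPM (log2 fold change 3.27 ± 0.50, adjusted p = 0.00115) and Col3a1 from 84.6 and 25.9 CPM to 497 and 496 CPM (log2 fold change 3.17 ± 0.58, adjusted p = 0.00284). The falls were Fbln1 (28.2 and 47.3 CPM to 13.4 and 16.4 CPM) and Ltbp2 (13.1 and 9.99 CPM to 2.06 and 2.01 CPM), both of elastic fibres. Fbln1 did not pass with SAF-WT replicate 1 or PF-WT replicate 2 left out (adjusted p = 0.0605 to 0.0892).

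Basement membrane genes split by kind. Nid1, which links laminin to collagen IV, rose from 21.5 and 10.1 CPM to 129 and 132 CPM (log2 fold change 3.05 ± 0.40, adjusted p = 0.000523), and Col4a1 from 28.6 and 11.7 CPM to 117 and 131 CPM (log2 fold change 2.63 ± 0.41, adjusted p = 0.00125). Of the 8 laminin chains tested none rose and Lama5 fell, from 5.91 and 5.22 CPM to 0.229 and 1.30 CPM (log2 fold change -2.84 ± 0.73, adjusted p = 0.0145). Lamb1 stood at 118 and 95.4 CPM and 93.8 and 103 CPM and overlapped between the stages. Over the list of 20, 6 rose and 1 fell, with a median of 0.84. Sparc, which binds collagen IV, rose from 137 and 121 CPM to 831 and 1027 CPM (log2 fold change 2.85 ± 0.32, adjusted p = 0.000228). Lama5 did not pass with SAF-WT replicate 1 left out (adjusted p = 0.0893).

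Fibroblast and muscle genes rose with the matrix. Of 18 stromal genes 11 rose and none fell (median 2.22), or 7 with either small antral library left out. Tcf21, a stromal transcription factor, went from 33.1 and 10.4 CPM to 246 and 205 CPM (log2 fold change 3.38 ± 0.51, adjusted p = 0.00113), and Igfbp6 from 22.3 and 15.1 CPM to 235 and 276 CPM (log2 fold change 3.77 ± 0.29, adjusted p = 5.21e-05). Among 19 genes of smooth muscle and pericytes 13 rose and none fell (median 2.91). Acta2, smooth muscle actin, was at 297 and 95.4 CPM in PF-WT and 1692 and 1482 CPM in SAF-WT (log2 fold change 3.02 ± 0.51, adjusted p = 0.00186), and Myl9, its myosin light chain partner, at 185 and 69.03 CPM and 1215 and 1013 CPM (log2 fold change 3.13 ± 0.41, adjusted p = 0.000529). Tpm2, a tropomyosin, was at 125 and 29.96 CPM and 1099.96 and 817 CPM (log2 fold change 3.63 ± 0.62, adjusted p = 0.002). The small antral follicles were high and close together, and preantral replicate 2 lay above replicate 1 in 2 of the 19 genes. Des and Cspg4, muscle and pericyte genes, were under 4 CPM in every library and did not pass.

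**Figure D3:**
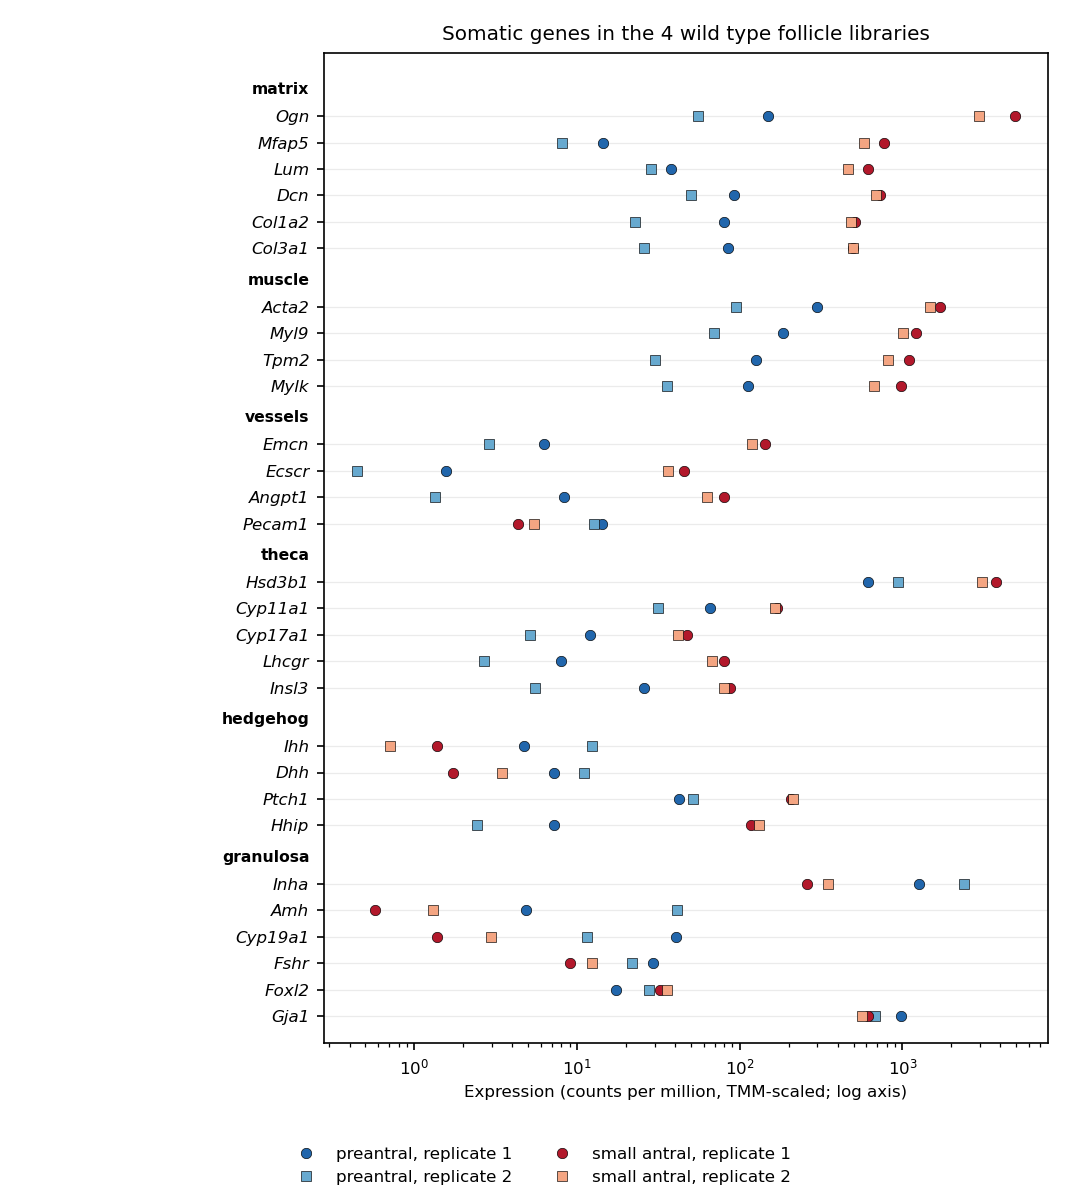
Expression of matrix, muscle, vessel, theca, hedgehog and granulosa genes (CPM, log axis) in the 4 libraries: circles are replicate 1 and squares replicate 2, blue preantral and red to orange small antral. Matrix, muscle and theca points of the small antral follicles lie together to the right of both preantral points, and Inha, Amh and Cyp19a1 lie the other way.

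Vessel genes were low but mostly rose where they changed. Of 23 endothelial genes 10 rose and 1 fell (median 1.76), and a filter at 10 CPM left 6 of them, of which 4 rose. Emcn, a glycoprotein of small vessels, went from 6.30 and 2.89 CPM to 143 and 119 CPM (log2 fold change 4.85 ± 0.51, adjusted p = 0.000174) and Ecscr, an endothelial surface protein, from 1.58 and 0.444 CPM to 45.7 and 36.3 CPM (log2 fold change 5.36 ± 0.57, adjusted p = 0.000188). Pecam1, an endothelial adhesion protein, was higher in the preantral libraries, at 14.2 and 12.8 CPM against 4.36 and 5.45 CPM (log2 fold change -1.45 ± 0.47, adjusted p = 0.0374). Of the 8 defining markers 4 rose, Emcn among them, and 1 fell, Pecam1. Cdh5 (0.657 and 1.44 CPM and 6.42 and 5.69 CPM) and Vwf (0.657 and 0 CPM and 0.688 and 0.474 CPM) were among those that did not pass. The 8 endothelial markers summed to 26.3 and 22.4 CPM in PF-WT and to 176 and 155 CPM in SAF-WT. Emcn alone made up 6.30 and 2.89 CPM of the PF-WT sums and 143 and 119 CPM of the SAF-WT sums, so the sums mostly follow that gene in SAF-WT. Among 16 vessel growth factors and receptors 8 rose and 2 fell (median 1.00). Angpt2, which loosens vessels, went from 3.68 and 2.55 CPM to 19.6 and 20.02 CPM (log2 fold change 2.67 ± 0.41, adjusted p = 0.00115), and Vegfa, the main vessel growth signal of the follicle, from 8.54 and 6.55 CPM to 20.9 and 12.4 CPM (log2 fold change 1.14 ± 0.38, adjusted p = 0.0418). Pecam1 did not pass with any 1 of the 4 libraries left out, with RLE factors or with the authors' scale factors (adjusted p = 0.0546 to 0.189). Vegfa did not pass with SAF-WT replicate 1, PF-WT replicate 1 or PF-WT replicate 2 left out, without a filter on low counts or in a fit of the 4 wild type libraries (adjusted p = 0.0501 to 0.318). Cdh5 passed with the authors' scale factors, with DESeq2 and in a fit of the 4 wild type libraries (adjusted p = 0.0156 to 0.037).

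Markers of other cells that can adhere to a follicle were counted as well. Of 20 macrophage and leukocyte genes 3 rose (15%, near the 12.7% of all genes) and none fell (median 0.43, range -0.24 to 2.02, the lowest without PF-WT replicate 2 and the highest without PF-WT replicate 1), and the 8 defining markers summed to 469 and 81.2 CPM in PF-WT and to 222 and 276 CPM in SAF-WT. Lyz2, lysozyme, was at 393 and 61.1 CPM and 194 and 234 CPM, with preantral replicate 1 the highest of the 4. The 3 that rose were Fcer1g, Tyrobp and Aif1, for example Fcer1g from 17.1 and 3.77 CPM to 50.02 and 54.9 CPM (log2 fold change 2.34 ± 0.57, adjusted p = 0.0116). No erythroid gene passed, 0 of 6, and haemoglobin Hba-a1 was at 1926 and 662 CPM in PF-WT and 1205 and 1182 CPM in SAF-WT. Of 13 surface epithelium genes 5 rose and 2 fell (median 1.499, range 0.19 to 2.99), and the rises came to 0 without SAF-WT replicate 2 or without PF-WT replicate 2. Msln, mesothelin, was at 1.97 and 0.666 CPM and 8.26 and 20.4 CPM. All 13 of these genes were higher in small antral replicate 2 than in replicate 1, the library that also held more Zp3. The part of such cells in the other results was not tested. Tyrobp did not pass with SAF-WT replicate 1, SAF-WT replicate 2 or PF-WT replicate 2 left out, in a fit of the 4 wild type libraries or with a GC and length correction (adjusted p = 0.0584 to 0.112). Msln did not pass with SAF-WT replicate 2 or PF-WT replicate 2 left out (adjusted p = 0.0629 to 0.0662).

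Mitotic genes fell in part. Of 26 genes of mitosis and the spindle 15 fell and none rose (median -0.91, range -1.13 to -0.57), and of 26 DNA replication genes 13 fell and none rose (median -1.0004, range -1.02 to -0.55). The promoters of a pair of mitotic genes that fell are shown because the CCAAT box, bound by NF-Y and frequent in genes of this phase, is common among them: Ccnb1 at chr13:100786487-100786736 (minus strand) and Bub1b at chr2:118597961-118598210 (plus strand), 250 bases before the RefSeq start site in GRCm38.p6, with CCAAT or its reverse strand form ATTGG in capitals.
Ccnb1: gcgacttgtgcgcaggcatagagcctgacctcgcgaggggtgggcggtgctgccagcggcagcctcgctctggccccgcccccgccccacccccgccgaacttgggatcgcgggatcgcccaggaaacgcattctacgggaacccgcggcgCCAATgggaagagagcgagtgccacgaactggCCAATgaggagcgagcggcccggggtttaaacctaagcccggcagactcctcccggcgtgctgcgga
Bub1b: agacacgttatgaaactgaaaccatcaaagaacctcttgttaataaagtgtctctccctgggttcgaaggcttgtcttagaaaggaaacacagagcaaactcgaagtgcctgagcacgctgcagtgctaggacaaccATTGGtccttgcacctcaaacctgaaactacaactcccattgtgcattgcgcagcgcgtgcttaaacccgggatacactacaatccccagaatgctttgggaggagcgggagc
CCAAT on either strand is in 77.3% of the 22 promoters found for the mitosis list and in 34.5% of all RefSeq promoters of this length. It is not particular to that list. Its share is 93.3% for cholesterol synthesis and uptake, 92.9% for meiotic arrest and resumption and 60% for DNA replication. Among genes lower in SAF-WT the share is 36.9%. Ccnb1 and Bub1b are also members of the oocyte lists.

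Bub1b, the spindle checkpoint kinase, went from 186 and 165 CPM to 21.5 and 27.1 CPM (log2 fold change -2.85 ± 0.24, adjusted p = 6.15e-05). Ccnb1, the mitotic cyclin that oocytes also store, went from 869 and 710.2 CPM to 179.7 and 147 CPM (log2 fold change -2.27 ± 0.25, adjusted p = 0.000202), Aurka from 209.8 and 191 CPM to 36.7 and 39.2 CPM (log2 fold change -2.40 ± 0.24, adjusted p = 0.000147) and Plk1 from 56.7 and 65.8 CPM to 10.1 and 9.01 CPM (log2 fold change -2.68 ± 0.29, adjusted p = 0.000195). Both replicates of each stage were close in these kinases and cyclins. Other proliferation genes of the same list did not pass: Mki67 was at 142 and 177 CPM and 155 and 113 CPM (log2 fold change -0.25 ± 0.33, adjusted p = 0.586), Top2a at 176 and 229 CPM and 196 and 166 CPM (log2 fold change -0.16 ± 0.27, adjusted p = 0.667), and Cdk1 at 242 and 389 CPM and 256 and 252 CPM (log2 fold change -0.31 ± 0.25, adjusted p = 0.365). Their libraries overlapped between the stages. For replication, Mcm2 of the helicase went from 48.3 and 80.6 CPM to 20.5 and 18.5 CPM (log2 fold change -1.72 ± 0.33, adjusted p = 0.00369) and Cdc45 from 42.3 and 82.1 CPM to 14.9 and 16.1 CPM (log2 fold change -2.004 ± 0.34, adjusted p = 0.002), while the sliding clamp Pcna was at 242 and 380.1 CPM and 268 and 276 CPM. All 26 replication genes were higher in preantral replicate 2 than in replicate 1, and the falls came to 3 without SAF-WT replicate 1 and to 6 without SAF-WT replicate 2 or PF-WT replicate 2.

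Of 19 cyclins and inhibitors 3 were higher (15.8%) and 4 lower (21.1%), near the shares of all genes (median -0.02, range -0.17 to 0.43). Cdkn2c, an inhibitor of the D cyclin kinases, rose from 21.01 and 17.2 CPM to 149 and 115 CPM (log2 fold change 2.79 ± 0.25, adjusted p = 8.58e-05), and Ccnd1 from 4.73 and 1.66 CPM to 20.4 and 22.6 CPM (log2 fold change 2.76 ± 0.61, adjusted p = 0.00742). Ccnd2, the D cyclin of granulosa cells, was at 205 and 709.6 CPM and 193 and 212 CPM and did not pass (log2 fold change -1.17 ± 0.45, adjusted p = 0.0708), preantral replicate 2 standing far above the other 3 libraries. Of 21 genes tied to follicle death 8 rose and 3 fell (median 0.26, range 0.19 to 0.99, the highest without PF-WT replicate 1). These shares were 38.1% and 14.3%, against 12.7% and 22.5% of all genes. Birc3, an inhibitor of apoptosis, fell from 138 and 110.4 CPM to 10.6 and 8.65 CPM (log2 fold change -3.69 ± 0.26, adjusted p = 4.58e-05) and Bax, which opens mitochondria, rose from 94.9 and 108 CPM to 181 and 190.2 CPM (log2 fold change 0.87 ± 0.21, adjusted p = 0.0108). Xiap, another inhibitor of apoptosis, rose from 50.03 and 53.4 CPM to 128 and 107 CPM (log2 fold change 1.18 ± 0.22, adjusted p = 0.00339). Bax did not pass with SAF-WT replicate 1 or SAF-WT replicate 2 left out (adjusted p = 0.0628 to 0.0685). Ccnd2 passed with PF-WT replicate 1 left out (adjusted p = 0.00158).

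Genes of energy supply divided between respiration and glycolysis. Of 40 oxidative phosphorylation genes 25 rose and none fell (median 0.87). Cox6c, a subunit of cytochrome oxidase, was at 816 and 659.6 CPM in PF-WT and 2501 and 2306 CPM in SAF-WT (log2 fold change 1.70 ± 0.19, adjusted p = 0.000229), and Uqcrb of complex III at 404 and 332 CPM and 1306 and 1013 CPM (log2 fold change 1.66 ± 0.21, adjusted p = 0.000482). Small antral values were more than 2-fold above preantral ones in both genes. Of the members that did not pass, Atp5b was at 430.3 and 1006 CPM and 452 and 505 CPM and Ndufv1 at 83.5 and 153 CPM and 59.3 and 66.2 CPM. Of 20 glycolysis genes 1 rose and 8 fell (median -0.68, range -0.80 to -0.33), a count that came to 3 with the authors' scale factors and to 1 without SAF-WT replicate 1. Ldhb, a lactate dehydrogenase, went from 1542 and 2224 CPM to 596 and 947 CPM (log2 fold change -1.29 ± 0.28, adjusted p = 0.00632) and Eno1, enolase, from 158 and 292 CPM to 80.8 and 82.9 CPM (log2 fold change -1.46 ± 0.33, adjusted p = 0.00807). Eno1 reads and those of Gapdh, which stood under 9 CPM in every library, may be shared with near-identical pseudogenes. Of 51 cytosolic ribosomal protein genes 41 rose and none fell (median 0.85), all with many near-identical copies, so that single members are uncertain. Without SAF-WT replicate 1 the rises came to 15 for respiration and to 21 for ribosomal proteins. Ldhb and Eno1 did not pass with SAF-WT replicate 1 left out (adjusted p = 0.0604 to 0.0609). Atp5b and Ndufv1 passed as lower in SAF-WT with PF-WT replicate 1 left out, with log2 fold changes of -0.96 and -1.17.

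**Figure D4:**
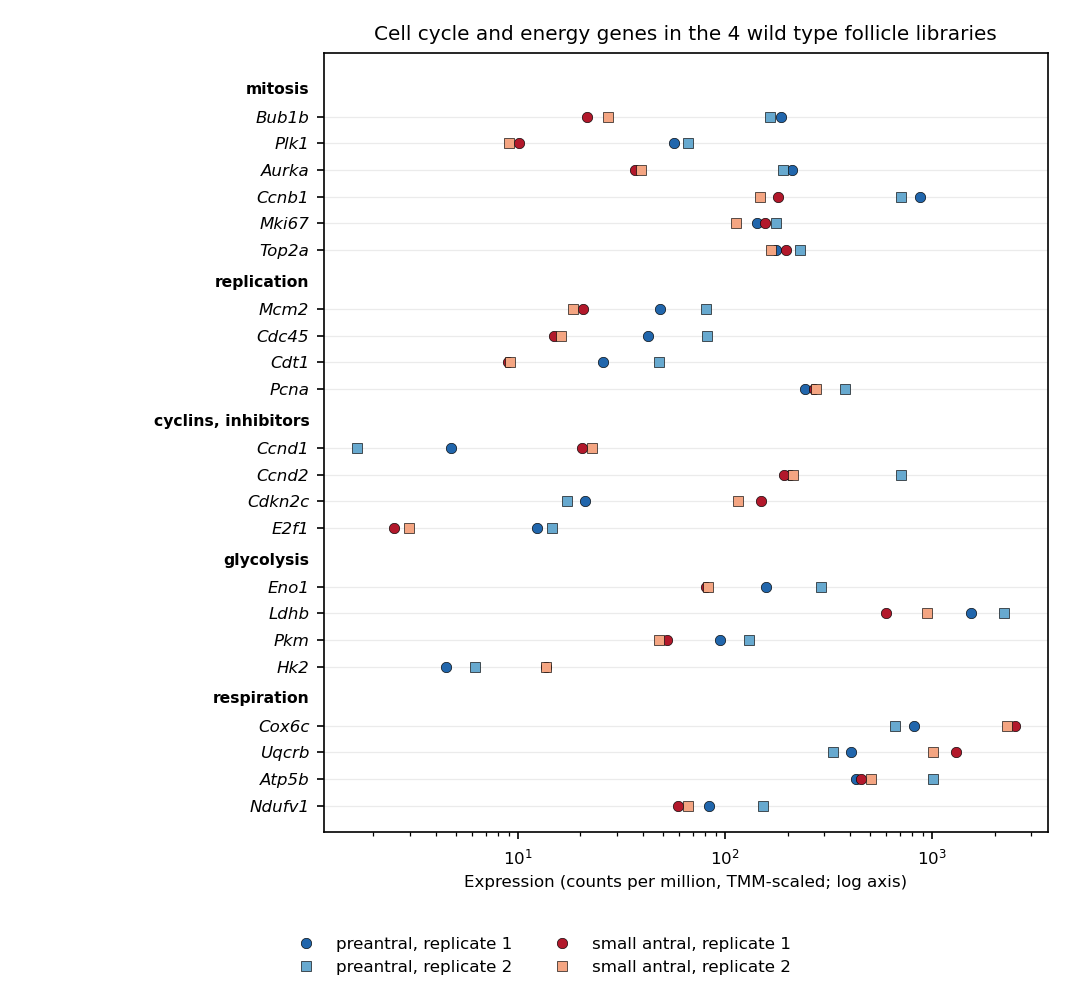
Expression of cell cycle and energy genes (CPM, log axis) in the 4 libraries: circles are replicate 1 and squares replicate 2, blue preantral and red to orange small antral. Bub1b, Plk1, Aurka and Ccnb1 lie lower in the small antral follicles while Mki67 and Top2a lie together, and Cox6c and Uqcrb lie higher.

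Among the ligands of the TGF-beta family, Tgfb2 fell from 456 and 287 CPM to 18.01 and 12.1 CPM (log2 fold change -4.62 ± 0.33, adjusted p = 4.58e-05) and Bmp5 from 101 and 44.4 CPM to 1.72 and 0.948 CPM (log2 fold change -5.74 ± 0.51, adjusted p = 8.28e-05). Bmp4, a theca ligand, rose from 0.919 and 0.222 CPM to 13.7 and 10.8 CPM (log2 fold change 4.43 ± 0.77, adjusted p = 0.00219). Of the receptors, Tgfbr2 rose from 7.62 and 2.44 CPM to 48.6 and 29.3 CPM (log2 fold change 2.96 ± 0.64, adjusted p = 0.0067) and Bmpr1a from 75.6 and 89.2 CPM to 229 and 197 CPM (log2 fold change 1.37 ± 0.22, adjusted p = 0.00142), whereas Bmpr1b, through which oocyte ligands act, did not pass at 168 and 114 CPM and 81.5 and 95.5 CPM. The target genes Id1, Id2 and Id3 rose, Id2 from 143 and 105 CPM to 768 and 526 CPM (log2 fold change 2.38 ± 0.32, adjusted p = 0.000573). In all 8 of 27 members rose and 4 fell, with a median of 0.62 (range 0.19 to 0.96, the lowest without SAF-WT replicate 2). These shares were 29.6% and 14.8%, against 12.7% and 22.5% of all genes. Id3 did not pass with SAF-WT replicate 1 left out (adjusted p = 0.129).

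Of 20 Wnt pathway members 5 rose (25%, against 12.7% of all genes) and 4 fell (20%, near the 22.5% of all genes). Lef1, a transcription factor of the pathway, fell from 49.5 and 27.5 CPM to 1.03 and 2.84 CPM (log2 fold change -4.31 ± 0.51, adjusted p = 0.000325), and Axin2, a common target, from 5.78 and 7.99 CPM to 1.03 and 1.30 CPM (log2 fold change -2.55 ± 0.47, adjusted p = 0.00304). The secreted inhibitor Sfrp1 rose from 5.78 and 2.44 CPM to 40.7 and 38.2 CPM (log2 fold change 3.27 ± 0.60, adjusted p = 0.00278). Ligands of the Notch pathway fell, Jag2 from 10.6 and 9.99 CPM to 0.229 and 0.592 CPM (log2 fold change -4.61 ± 0.73, adjusted p = 0.00133) and Jag1 from 52.9 and 31.1 CPM to 10.7 and 9.36 CPM (log2 fold change -2.07 ± 0.45, adjusted p = 0.00689), and no receptor or target among the 14 members passed. The receptor Notch3, under 2 CPM in every library, passed with the authors' scale factors (adjusted p = 0.0473). The list's falls, 3 of 14, were near the share of all genes. Of 16 genes of the insulin-like growth factor system 5 rose and 1 fell (median 0.95, range 0.54 to 1.44). Igf1 itself was at 266 and 419 CPM and 316 and 243 CPM and did not pass, while its binding protein relative Igfbp7 rose from 111 and 105 CPM to 698 and 916 CPM (log2 fold change 2.90 ± 0.26, adjusted p = 8.71e-05) and the docking protein Irs1 from 11.6 and 16.3 CPM to 72.4 and 58.5 CPM (log2 fold change 2.23 ± 0.30, adjusted p = 0.000587).

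Of 23 genes of DNA methylation and chromatin 12 fell and 3 rose (median -1.04). Dnmt1, which copies methylation, went from 269.8 and 336 CPM to 28.3 and 50.1 CPM (log2 fold change -2.95 ± 0.32, adjusted p = 0.000199), Dnmt3l, which helps set maternal imprints, from 40.8 and 32.3 CPM to 1.72 and 3.20 CPM (log2 fold change -3.89 ± 0.42, adjusted p = 0.000187), and Tet3 from 88.9 and 71.02 CPM to 17.1 and 18.96 CPM (log2 fold change -2.15 ± 0.23, adjusted p = 0.00019). The oocyte linker histone gene H1foo fell from 2748 and 1655 CPM to 37.6 and 107 CPM (log2 fold change -4.93 ± 0.49, adjusted p = 0.000121). In the retinoid and prostaglandin list 6 of 19 rose (31.6%) and 3 fell (15.8%), against 12.7% and 22.5% of all genes (median 0.84, range 0.11 to 1.46). The retinol carrier Rbp4 rose from 3.41 and 1.33 CPM to 78.8 and 88.6 CPM (log2 fold change 5.15 ± 0.43, adjusted p = 6.43e-05), and Aldh1a1, which makes retinoic acid, went from 182 and 71.5 CPM to 814 and 595 CPM (log2 fold change 2.47 ± 0.47, adjusted p = 0.00332). Cholesterol synthesis and uptake changed in 3 of 23 members, all lower (13%, below the 22.5% of all genes). Among them was squalene synthase Fdft1, at 431 and 421 CPM and 67.2 and 87.4 CPM (log2 fold change -2.46 ± 0.26, adjusted p = 0.000174). Of 17 immediate early and stress genes 3 fell (17.6%, below the 22.5% of all genes) and none rose, the 3 being the heat shock protein genes Dnajb1 and Hsp90aa1 and the phosphatase gene Dusp1. Of 11 innervation genes 3 rose (27.3%) and 2 fell (18.2%), against 12.7% and 22.5% of all genes. Their log2 fold changes ran from -5.33 to 5.36, and their summed level fell, from 167 and 110 CPM to 57.8 and 58.8 CPM. The highest was the neurotrophin gene Bdnf, at 0.525 and 0 CPM and 12.8 and 8.53 CPM (log2 fold change 5.36 ± 0.99, adjusted p = 0.00391). Of 16 luteal genes 7 rose (43.8%) and 1 fell (6.25%), most of the risers being the steroid genes above. Hsp90aa1 did not pass with SAF-WT replicate 1 or SAF-WT replicate 2 left out or with the authors' scale factors (adjusted p = 0.0643 to 0.133). Dusp1 did not pass with SAF-WT replicate 1 left out (adjusted p = 0.0894).

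**Figure D5:**
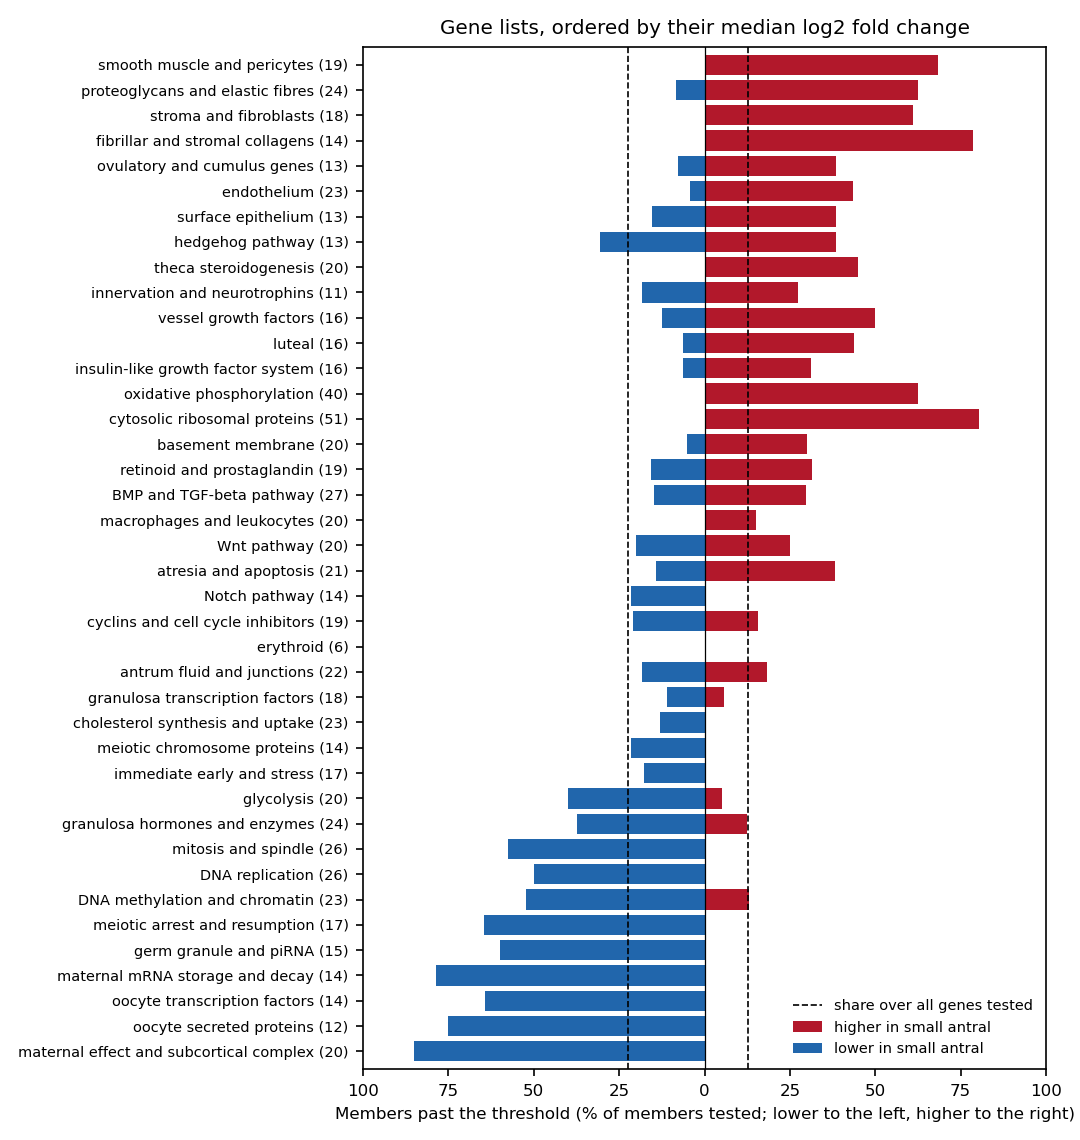
Share of tested members past the threshold in each of the 40 gene lists (x axis, % of members tested, with the number tested in brackets), lower in SAF-WT to the left in blue and higher to the right in red, ordered by median log2 fold change. Dashed lines mark the shares over all genes, 22.5% lower and 12.7% higher, which the oocyte lists pass on the left and the matrix, muscle and ribosomal lists pass on the right.

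Among the genes with the largest falls by fold, Zfp296, a zinc finger gene, went from 199 and 98.4 CPM to 0.803 and 1.54 CPM (log2 fold change -6.98 ± 0.55, adjusted p = 5.27e-05), and Kif17, a kinesin, from 229.9 and 166 CPM to 1.72 and 2.01 CPM (log2 fold change -6.72 ± 0.40, adjusted p = 4.5e-05). Umodl1 went from 1581 and 633 CPM to 11.7 and 19.6 CPM (log2 fold change -6.15 ± 0.48, adjusted p = 5.27e-05). In the same ranking the leading rises after Mfap5 were Ctla2a, from 4.60 and 2.22 CPM to 179 and 172 CPM (log2 fold change 5.70 ± 0.41, adjusted p = 4.58e-05), and Ms4a4d, from 3.02 and 1.11 CPM to 116 and 69.9 CPM (log2 fold change 5.51 ± 0.48, adjusted p = 7.66e-05). Figf, the gene of vascular endothelial growth factor D, went from 3.94 and 0.666 CPM to 59.7 and 72.04 CPM (log2 fold change 4.86 ± 0.65, adjusted p = 0.00059). By gain in CPM, a measure that also grows with transcript length, the nuclear long RNA Malat1 led, from 4193 and 2999 CPM to 13955 and 12142 CPM (log2 fold change 1.86 ± 0.43, adjusted p = 0.00893), followed by Tmsb4x, which binds actin monomers, from 1498 and 532 CPM to 6485 and 6165 CPM (log2 fold change 2.64 ± 0.40, adjusted p = 0.00113). Actb, an actin gene often used as a reference, rose from 1257 and 1333 CPM to 4566 and 3752 CPM (log2 fold change 1.68 ± 0.21, adjusted p = 0.000438). Malat1 did not pass with PF-WT replicate 2 left out (adjusted p = 0.0553).

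With a minimum of 10 counts in both libraries of the other stage, 203 genes had no count in SAF-WT and 23 none in PF-WT, and at a minimum of 20 counts these numbers were 91 and 3. Magea10 was at 30.1 and 23.4 CPM in PF-WT and had no count in SAF-WT, which makes it at least 76.4-fold lower against a floor of 3 counts per library. Unc80 was at least 37.3-fold and Igfals at least 32.4-fold lower by the same measure. In the other direction Slurp1, with no count in PF-WT, was at 1.03 and 14.8 CPM in SAF-WT, and rested on replicate 2. Genes chosen for a small difference with a small error included Psma7 of the proteasome and Cops4 of the signalosome. Psma7 was at 992 and 897 CPM and 1089 and 1061 CPM (log2 fold change 0.19 ± 0.17, adjusted p = 0.412), and Cops4 at 504 and 479.7 CPM and 482 and 459 CPM (log2 fold change -0.06 ± 0.17, adjusted p = 0.795). Slurp1 did not pass with SAF-WT replicate 2, PF-WT replicate 1 or PF-WT replicate 2 left out (adjusted p = 0.067 to 0.155).

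The stage change in wild type was set against that in transplant-derived follicles by the interaction of stage and source. Of the 17925 genes 162 (0.904%) passed, 44 with the larger rise or smaller fall in wild type and 118 the reverse, and 16 were called in wild type alone among the 77 that had also passed in wild type. A call in wild type without one in the other source is no test of a difference, which only the interaction gives. Cyp11a1 rose by 1.78 in wild type and by 9.03 in transplant-derived follicles on the log2 scale (interaction -7.24 ± 0.78, adjusted p = 0.00488), and Star by 2.31 and 8.04 (interaction -5.73 ± 0.58, adjusted p = 0.00429). Mdk, the growth factor midkine, rose from 31.4 and 32.96 CPM to 335 and 361 CPM in wild type (log2 fold change 3.43 ± 0.21, adjusted p = 4.5e-05), against a log2 fold change of -0.10 in transplant-derived follicles (interaction 3.53 ± 0.28, adjusted p = 0.00133). The count of 162 was 793 with DESeq2, 74 with the replicate block and 28 to 343 with a library left out.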

How the data were processed

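The authors deposited raw counts per gene and library, per the file headers, whole numbers without normalization. Their table also holds a normalized signal per stage, a log2 ratio and an adjusted p-value, which the authors computed, per the file headers. By these, 7696 genes passed in the authors' deposited table, 4586 higher and 3110 lower in SAF-WT. Of them 4990 were also called here, all in the same direction. The larger side differs, since 2268 were higher and 4026 lower here. The aligner HISAT2 2.0.1 and the build GRCm38 are named in the submitters' processing notes. Which counter, annotation and strand setting made the counts is not given in the sources used here, so overlapping and antisense genes cannot be told apart. Counts of the 21997 genes listed for all 8 libraries were fitted with edgeR 4.0.16 in R 4.3.3: filterByExpr (min.count 10, min.total.count 15), TMM factors, 1 mean for each of the 4 groups, quasi-likelihood F test with 4 residual degrees of freedom, Benjamini-Hochberg adjustment over all 17925 genes, threshold 0.05. The square root of the common dispersion was 0.303, and the fit was tested on simulated data. SEs are the fold change over the square root of F. Positions, and the 250-base promoters found for 11444 of the genes tested, are RefSeq's for GRCm38.p6.

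The members of 40 gene lists and all rules were chosen with earlier results of these data known. Genes named are those of largest fold or CPM difference among calls without overlap (at least 10 CPM in the higher and 1 CPM in the lower stage, without predicted, small RNA, receptor-family, ribosomal protein and pseudogenes), the genes at 1 stage alone, the 5 smallest p of each list, a set of marker genes, the genes most unlike between replicates or steadiest, and the 8 smallest interaction p. A further 31 genes were named after their values were seen. Alternatives were RLE factors, the authors' scale factors, TMM within wild type, no filter, a filter at 10 CPM, DESeq2 1.42.0, a fit of the 4 wild type libraries, the replicate number as a block, a correction for GC and length from GENCODE M21, and each library left out.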

Additional observations from a re-analysis of the deposited data

Results flagged for a closer look

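Of 333 named genes, 17 had a stage change that differed between wild type and transplant-derived follicles by the interaction in edgeR's quasi-likelihood test, 14 with the lower and 3 with the higher value in wild type. Part of that count was fixed by the choice of names, since 8 of the named genes were chosen for the smallest interaction p. Every difference below is the log2 fold change in wild type minus that in transplant-derived follicles, with the adjusted p of the interaction.

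Several of the 17 act in making steroids. For Cyp11a1 the difference was -7.24 ± 0.78, adjusted p = 0.00488, the gene going from 65.4 and 31.4 CPM to 169 and 164 CPM in wild type and from 6.76 and 13.2 CPM to 7838 and 2643 CPM in transplant-derived follicles. For Star, which carries cholesterol into mitochondria, it was -5.73 ± 0.58, adjusted p = 0.00429, with 7.75 and 3.33 CPM and 22.03 and 32.2 CPM in wild type and, from stage to stage, 4.98 and 3.21 CPM to 1289 and 866 CPM in transplant-derived follicles. For Fdx1, which passes electrons to Cyp11a1, it was -3.69 ± 0.39, adjusted p = 0.00481, with small antral levels of 502 and 496 CPM in wild type and 4156 and 3194 CPM in transplant-derived follicles. For Hsd17b7 it was -3.29 ± 0.55, adjusted p = 0.0295 and for the prostaglandin receptor gene Ptgfr -5.68 ± 1.00, adjusted p = 0.0349. In these genes, Ptgfr included, the small antral follicles of transplant origin stood above those of wild type.

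The drug exporter gene Abcb1b fell in wild type and rose in the other source (difference -4.93 ± 0.40, adjusted p = 0.00133), as did Rab33a (-4.13 ± 0.47, adjusted p = 0.0065), Runx1 (-3.004 ± 0.46, adjusted p = 0.0226) and Ldha (-1.65 ± 0.30, adjusted p = 0.0399). Hao2 rose in both, less in wild type (-3.23 ± 0.35, adjusted p = 0.00486), and so did S100a4 (-7.01 ± 0.75, adjusted p = 0.00486). The macrophage gene Emr1 did not pass in wild type and rose in transplant-derived follicles (difference -4.26 ± 0.79, adjusted p = 0.0432), and the muscle gene Des likewise (difference -5.80 ± 1.09, adjusted p = 0.0447), but Des had 0 and 1 count in the preantral transplant-derived libraries, so that its value is no bound. Hoxd10 rose in both, but its difference (-6.75 ± 1.03, adjusted p = 0.0278) rests on preantral transplant-derived libraries with no counts and is no bound.

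Mdk, Ddx4 and Figla had the higher value in wild type. Mdk rose in wild type and went from 75.1 and 89.2 CPM to 83.04 and 70.7 CPM in transplant-derived follicles (difference 3.53 ± 0.28, adjusted p = 0.00133). The germ cell helicase Ddx4 did not pass in wild type and fell in transplant-derived follicles (4.64 ± 0.75, adjusted p = 0.0269), as did Figla (4.28 ± 0.78, adjusted p = 0.0393). The small antral transplant-derived libraries held Figla at 4.29 and 2.93 CPM, against 13.4 and 54.03 CPM in wild type.

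The calls in wild type alone depend on the setting for some of these genes. Cyp11a1 did not pass with SAF-WT replicate 1, SAF-WT replicate 2 or PF-WT replicate 2 left out (adjusted p = 0.06 to 0.121). Ptgfr did not pass with SAF-WT replicate 1 or PF-WT replicate 2 left out (adjusted p = 0.0515 to 0.0614). Rab33a did not pass with SAF-WT replicate 1, SAF-WT replicate 2 or PF-WT replicate 1 left out or with the authors' scale factors (adjusted p = 0.0759 to 0.164). Runx1 did not pass with SAF-WT replicate 1 left out (adjusted p = 0.0661). Ldha did not pass with SAF-WT replicate 1, SAF-WT replicate 2 or PF-WT replicate 2 left out, with the authors' scale factors or with a GC and length correction (adjusted p = 0.0663 to 0.155). S100a4 did not pass with SAF-WT replicate 1, SAF-WT replicate 2 or PF-WT replicate 2 left out, in a fit of the 4 wild type libraries or with a GC and length correction (adjusted p = 0.0717 to 0.19). Hsd17b7 passed with PF-WT replicate 1 left out (adjusted p = 0.0214). Emr1 passed with PF-WT replicate 1 left out, with the authors' scale factors, with DESeq2 and with a GC and length correction (adjusted p = 0.02 to 0.0495). Ddx4 passed with SAF-WT replicate 2 or PF-WT replicate 1 left out (adjusted p = 0.0321 to 0.0483).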

How the results depend on the processing

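Every gene called both in the main fit (TMM factors, all libraries) and under an alternative kept its direction. The alternatives were set against the main fit and not against each other. The number higher came to 3593 under the scale factors of the authors, and with a library left out the calls ran from 3075 to 5153 in all, 926 to 2015 higher and 2149 to 3167 lower, leaving out SAF-WT replicate 1 giving the lowest. Of named genes, Vcan and Il13ra2, neither of which passed with all 4 libraries, turned, with log2 fold changes from -0.67 to 0.91 and from -1.15 to 1.38 over the libraries left out, the positive ends without PF-WT replicate 2; the cause was not tested.

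With a library left out, falls among the lists ran from 8 to 12 for secreted oocyte proteins, 15 to 19 for maternal effect, 3 to 8 for granulosa hormones, 11 to 14 for mitosis and 3 to 12 for DNA replication. Rises ran from 6 to 10 for theca, 3 in each for hedgehog, 7 to 11 for collagens, 12 to 18 for proteoglycans, 11 to 14 for muscle, 4 to 8 for endothelium (4 of the 6 tested with the filter at 10 CPM), 15 to 24 for respiration and 21 to 39 for ribosomal proteins. The interaction gave 162 calls, 793 with DESeq2, 28 to 343 with a library left out. At a minimum of 20 counts 3 genes in place of 23 were without counts in PF-WT and 91 in place of 203 in SAF-WT. Fits that leave out a library rest on 1 sample in a stage, assumed to vary like the other groups.

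The replicate numbers are not shown to pair follicles: deviations of same-numbered libraries correlated at 0.013. With the replicate block 5608 genes passed, 1967 higher and 3641 lower, and 74 for the interaction. With 2 follicles a stage and depths of 7656108 to 9805287 counts, genes under about 1 CPM were called least often.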

Other observations

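Calls were counted by the mean level of a gene. Of 1597 genes with a mean under 1 CPM 15.5% were called, of 7097 genes at 10 to 100 CPM 41.2%, and of 104 genes at 1000 CPM or more 75%. Falls outnumbered rises below 100 CPM (1946 against 977 at 10 to 100 CPM), and rises outnumbered falls above (702 against 400 at 100 to 1000 CPM, 67 against 11 at 1000 CPM or more).

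Families of genes that share the letters of their symbol were chosen after their values were seen, and are given with no test. Of 24 tested Fbxw genes, of the F-box proteins, 19 fell and none rose (median -4.51), and of 14 Nlrp genes 10 fell (median -4.33). Of 26 tested Olfr genes, olfactory receptors, 14 fell and 2 rose (median -5.79). Of 21 Nup genes of the nuclear pore 13 fell (median -0.93). Of 13 Sept genes, septins that build rings and barriers in the cell cortex, 7 rose and 1 fell. Members of such families share sequence, so their single counts are uncertain.

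On the X chromosome 118 of 638 genes tested were higher (18.5%) and 92 lower (14.4%) and a median of 0.14, against 12.7% and 22.5% over all genes. Chromosome 3 had 137 higher (17.2%) and 149 lower. On chromosome 8 the shares were 9.42% and 26.4%.

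Of 4128 genes with a mean of at least 50 CPM, 293 (7.1%) were more than 2-fold apart in PF-WT, against 28 of 3697 (0.757%) in SAF-WT, 26 of those 28 higher in replicate 2. Preantral replicate 1 held more Lyz2 (393 and 61.1 CPM), and replicate 2 more Lect1 (143 and 875 CPM), Aard (16.8 and 143 CPM) and Isyna1, inositol phosphate synthase (54.9 and 379 CPM). Of the 28 genes in SAF-WT, those higher in replicate 2 included Gatm, at 36.9 and 117 CPM, and those higher in replicate 1 were Aspn (1140.1 and 569 CPM) and the chemokine gene Ccl21a (360.3 and 162 CPM).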
